A study of Rana omeimontis with 12 samples.

Results

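Nuclear receptors and their cofactors were followed in liver and tail of Rana omeimontis tadpoles given T3, the active thyroid hormone. The members are the assembled transcripts (unigenes) whose protein annotation names a nuclear receptor, a hepatocyte nuclear factor 4 or a protein that binds nuclear receptors, and that reached 1 FPKM (fragments per kilobase of transcript, scaled to the mapped fragments of the library) in at least 3 of the 12 libraries. The wording matched 78 unigenes of 56172, and 56 of them passed the level filter, which 24085 of all unigenes passed. The other 22 averaged at most 0.606 FPKM over the 12 libraries, with no single value above 2.16 FPKM. At the edge of the filter, HNF4-alpha, ROR-alpha and 1 chemerin unigene passed with 3 libraries each, and an NCOA4 unigene missed with 2 libraries and a mean of 0.506 FPKM. By role, the 56 members are 28 receptors, 11 coactivators, 6 corepressors, 2 other interacting proteins and 9 proteins that match by wording but are best known for other work, such as chemerin and the membrane bile acid receptor GPBAR1. The label therefore fits most members and not these 9, which are described apart.

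The treated tadpoles had 10 nM T3 in their water for 3 days from Gosner stages 30 to 31, and the control tadpoles had the DMSO vehicle for the same time. Food was given throughout, and the paper reports that T3-treated tadpoles ate less and weighed less. T3 and lower food intake cannot be told apart in these libraries. Livers and tails gave 3 libraries for each tissue and treatment, written here as T3 liver, control liver, T3 tail and control tail. Whether a library held 1 animal or several, and whether a liver and a tail of the same number came from the same animal, is not given in the sources used here. The p-values therefore measure the spread between these libraries only.

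Nuclear receptors are transcription factors that bind DNA at response elements and change their partners when a ligand is bound. Without ligand, receptors such as those for thyroid hormone and retinoic acid hold corepressors such as NCOR1 and keep target genes low, and with ligand they exchange them for coactivators such as the NCOA family. The thyroid hormone, retinoic acid, vitamin D, oxysterol, bile acid and PPAR receptors bind DNA as heterodimers with a retinoid X receptor, so that 1 partner serves many hormones during metamorphosis.

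The libraries summed to between 773936 and 1029985 FPKM, and the read depth behind them is not held in these values. Log2(FPKM + 1) correlated at 0.916 to 0.97 between libraries of a group, at 0.847 to 0.899 between T3 and control libraries of a tissue and at 0.496 to 0.599 between liver and tail. The hepatocyte markers took 2.91% to 5.91% of the FPKM of every liver library and at most 0.00539% of every tail library, and skeletal muscle markers took 2.11% to 5.88% of the tails and at most 0.021% of the livers. Exocrine pancreas markers (55 unigenes, 32 of them at 1 FPKM or more) took 8.13% and 10.1% of control livers 1 and 2, against 0.0401% of control liver 3 and 0.0236% to 0.634% of T3 livers. The liver comparisons were therefore also fitted without control livers 1 and 2, which leaves 1 control liver. In those fits far fewer of all tested unigenes were called, so a call lost there need not be particular to a member. Fewer cells of a type and less RNA per cell cannot be told apart in tissue RNA.

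**Figure D1:**
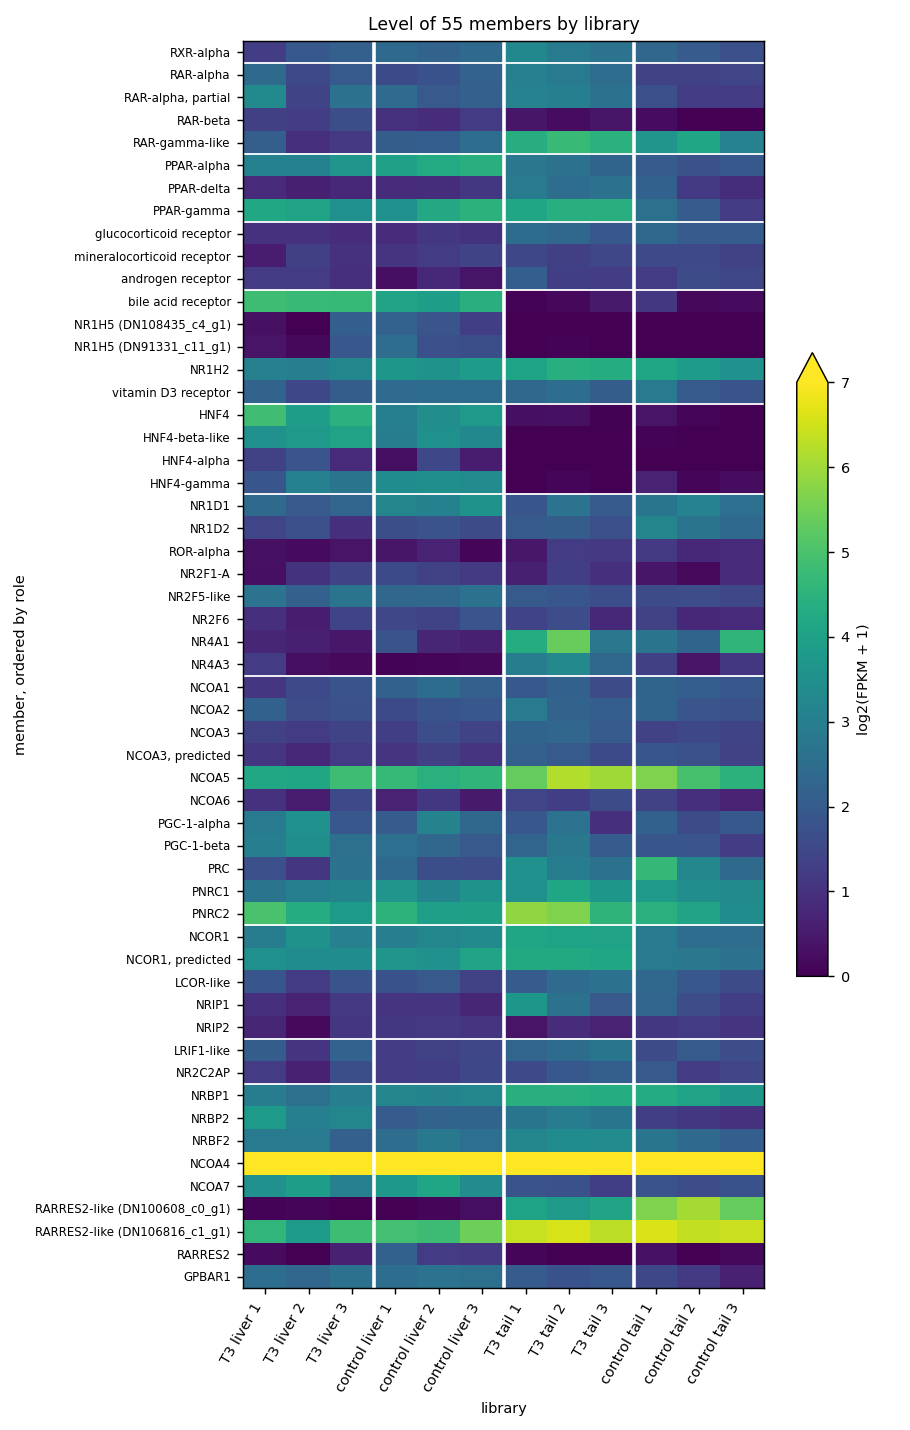
Level of 55 of the 56 members, as log2(FPKM + 1), in the 12 libraries, with members down the page in order of role and the groups T3 liver, control liver, T3 tail and control tail from left to right. The HNF4 members and the bile acid receptor are dark in every tail library, RAR-alpha, RAR-gamma-like and NCOR1 are brighter in T3 tails than in control tails, and NCOA4 lies above the top of the scale in all 12 libraries.

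In tail, RXR-alpha, the 3 tested retinoic acid receptor unigenes, PPAR-gamma and PPAR-delta, NR4A3 and both unigenes of the corepressor NCOR1 were higher with T3, while in liver PPAR-alpha and NR1D1 were lower. Of the 46 members tested in tail, 14 (30.4%) rose and 2 (4.35%) fell, beside 19.2% and 6.23% of all 18429 unigenes tested there. The median log2 fold change was 0.44 over the members and 0.31 over all tested unigenes, so that most tail values lie above 0 as a whole. In liver, 3 of 48 members (6.25%) rose and 2 (4.17%) fell, beside 3.83% and 8.67% of all 18923 tested unigenes, and the medians were -0.14 and -0.26. Setting libraries to a common scale by median ratios or by quantiles brought those medians of all unigenes to between -0.07 and 0.03. Under either scaling the members split into 11 rises and 3 falls in tail and 5 rises and no fall in liver. RXR-alpha and RAR-gamma-like lost the call in tail under both scalings, and PPAR-alpha and NR1D1 lost it in liver. Without control livers 1 and 2, no member was called in liver, and few of all tested unigenes were. The log2 fold changes in that fit were -1.15 for PPAR-alpha, -1.35 for NR1D1, 1.10 for NRBP2 and 0.58 for NCOA4, with the signs they had before. The share of rises among all called unigenes moved with the same scalings, being 75.5% as deposited in tail against 50.1% and 52.7%, and 30.7% as deposited in liver against 59.7% and 52.9%.

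**Figure D2:**
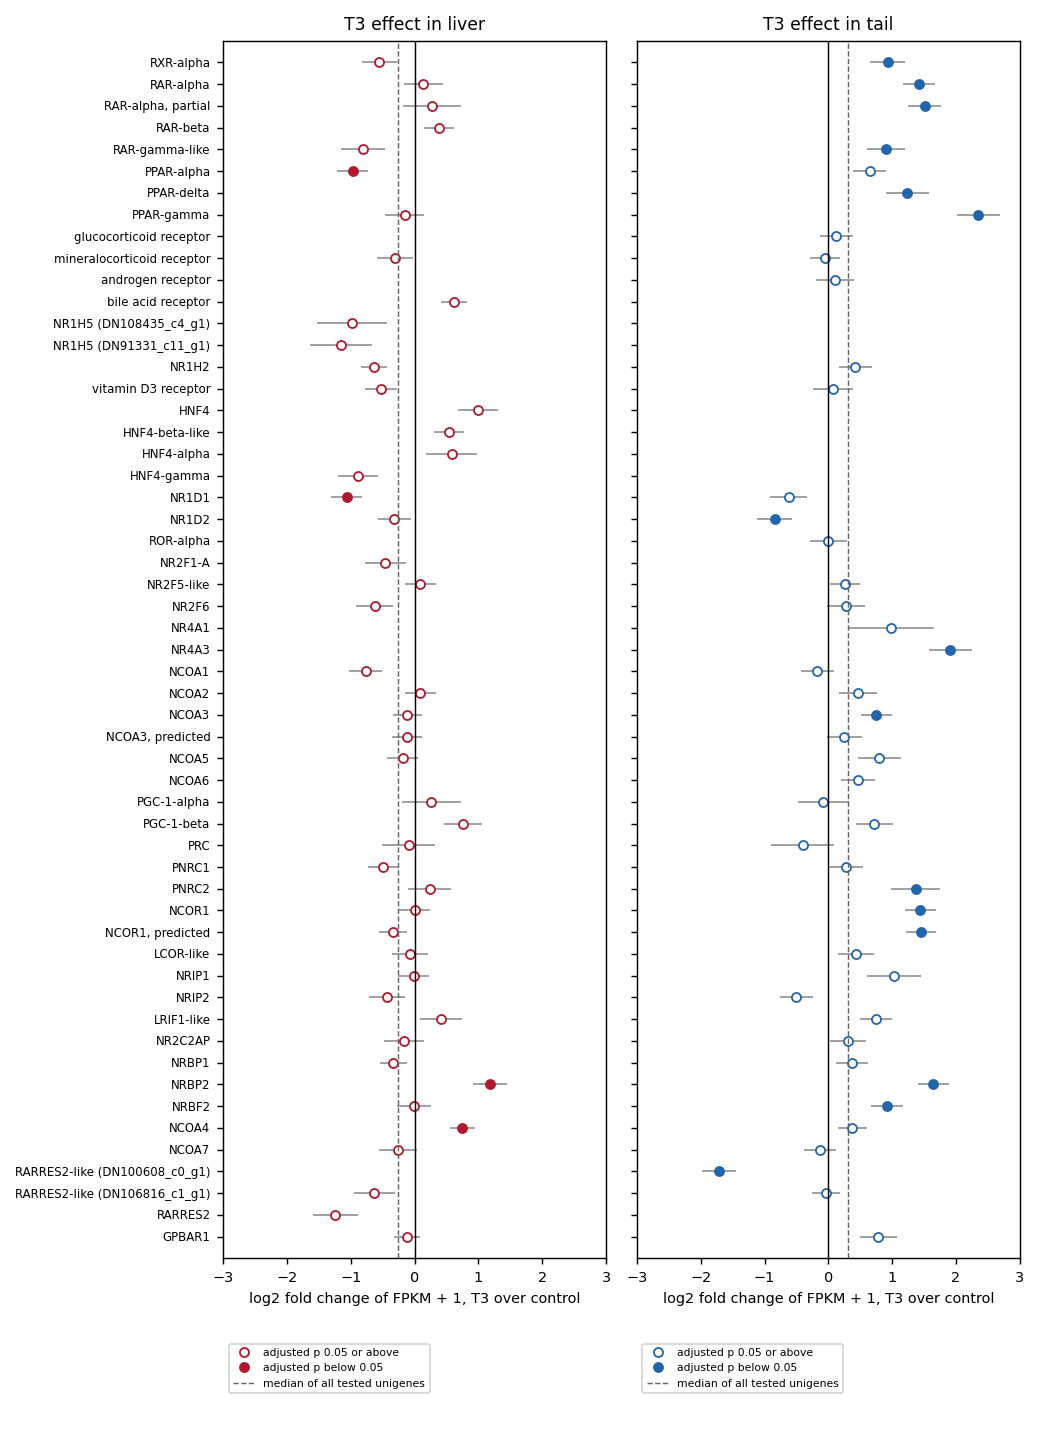
Log2 fold change of FPKM + 1, T3 over control, with its standard error for the tested members drawn, in liver on the left and in tail on the right. Filled points are called at an adjusted p below 0.05, and the dashed line is the median of all tested unigenes (-0.26 in liver and 0.31 in tail). The filled points of tail stand mostly right of the line, from NCOA3 at 0.75 to PPAR-gamma at 2.35.

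RXR-alpha is the common dimer partner, and its unigene was the only retinoid X receptor among the members. It had 8.65, 6.33 and 5.37 FPKM in T3 tails, against 3.92, 3.02 and 2.28 FPKM in control tails. All 3 T3 tails lay above all 3 control tails. The log2 fold change was 0.93 ± 0.27 (SE, adjusted p = 0.0303), and median-ratio scaling (0.62, adjusted p = 0.0516) and quantile normalization (0.58, adjusted p = 0.0686) ended the call, as did leaving out control tail 2 or 3 or T3 tail 1 or 2 (adjusted p up to 0.124). In liver it had 1.43, 2.84 and 3.42 FPKM with T3, against 4.23, 3.68 and 4.31 FPKM in controls, a log2 fold change of -0.55 ± 0.28 that was not called (adjusted p = 0.229).

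The retinoic acid receptors switch on genes that pattern limbs, skin and nerve when all-trans retinoic acid is bound. RAR-alpha had 7.31, 6.59 and 4.64 FPKM in T3 tails, against 1.61, 1.58 and 1.76 FPKM in control tails. The lowest T3 tail was well above the highest control tail, and the log2 fold change was 1.42 ± 0.25 (adjusted p = 0.00286). A second unigene was annotated as a partial RAR-alpha and is possibly another piece of the same gene, which could not be settled here. Its identifier begins like that of RAR-gamma-like but names another assembly component. This partial RAR-alpha had 7.58, 7.08 and 5.11 FPKM in T3 tails, against 2.26, 1.38 and 1.37 FPKM in control tails. It rose by a log2 fold change of 1.51 ± 0.26 (adjusted p = 0.00262). Both calls held under every alternative tried.

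RAR-gamma-like, the receptor of skin and cartilage in mammals, was the most abundant retinoic acid receptor of the tail. It had 19.58, 25.81 and 21.15 FPKM in T3 tails, against 11.54, 16.18 and 7.62 FPKM in control tails. The groups did not overlap, and the log2 fold change was 0.91 ± 0.29 (adjusted p = 0.0449). The call was lost under median-ratio scaling (adjusted p = 0.113) and quantile normalization (adjusted p = 0.107), and when any library but control tail 2 was left out (adjusted p up to 0.168). RAR-beta, which is itself a retinoic acid target gene, stayed at or below 0.35 FPKM in all tails and was not tested there. In liver, none of the 4 was called, and RAR-beta had 1.51, 1.41 and 2.18 FPKM with T3, against 1.00, 0.85 and 1.33 FPKM in controls (log2 fold change 0.39 ± 0.24, adjusted p = 0.32). Over the 4 unigenes, the summed level was 35.2 ± 4.22 FPKM in T3 tails and 15.2 ± 4.21 FPKM in control tails, and 11.9 ± 6.15 FPKM in T3 livers and 11.1 ± 1.84 FPKM in control livers (SD, n = 3 each). These sums hold the same gene more than once if both RAR-alpha unigenes come from it.

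The PPARs sense fatty acids. PPAR-gamma drives fat storage, PPAR-alpha drives fatty acid oxidation in liver, and PPAR-delta is broadly expressed. PPAR-gamma had 16.29, 20.5 and 19.82 FPKM in T3 tails, against 4.99, 3.14 and 1.34 FPKM in control tails. Every T3 tail exceeded every control tail by more than the spread within either group, and the log2 fold change of 2.35 ± 0.34 (adjusted p = 0.000852) was the largest of any member in tail. It held under every alternative tried. In liver the same unigene had 17.25, 15.5 and 10.47 FPKM with T3, against 10.52, 17.64 and 21.39 FPKM in controls, and the groups overlapped (log2 fold change -0.16 ± 0.31, adjusted p = 0.769).

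PPAR-alpha fell in liver. It had 7.37, 7.5 and 11.47 FPKM in T3 livers, against 15.12, 18.29 and 20.33 FPKM in control livers. It fell by 0.97 ± 0.24 on the log2 scale (adjusted p = 0.0421), with no overlap between the groups. The call ended under median-ratio scaling (-0.66, adjusted p = 0.114) and quantile normalization (-0.72, adjusted p = 0.0959), at equal library sums (adjusted p = 0.0603), and without control liver 1, 2 or 3 or T3 liver 1 or 2 (adjusted p up to 0.146). In tail it had 5.91, 5.06 and 3.77 FPKM with T3, against 3.11, 2.33 and 2.8 FPKM in controls, a log2 fold change of 0.65 ± 0.25 that was not called (adjusted p = 0.0847). At equal library sums the tail rise was called (0.83, adjusted p = 0.046).

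PPAR-delta was low in liver, at 0.52 to 0.78 FPKM with T3 and 0.84 to 1.21 FPKM in controls, and was not tested there. In tail it had 6.42, 4.7 and 5.09 FPKM with T3, against 3.52, 1.3 and 0.89 FPKM in controls. The groups did not overlap, though control tail 1 stood above the other two, and the log2 fold change was 1.24 ± 0.33 (adjusted p = 0.0216). Without control tail 2 or 3 or T3 tail 1 or 2 the call was lost (adjusted p up to 0.0737). Summed over the 3 PPARs, T3 tails had 29.2 ± 0.93 FPKM and control tails 7.81 ± 3.42 FPKM, while T3 livers had 23.9 ± 1.4 FPKM and control livers 35.4 ± 8.31 FPKM (SD, n = 3 each).

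**Figure D3:**
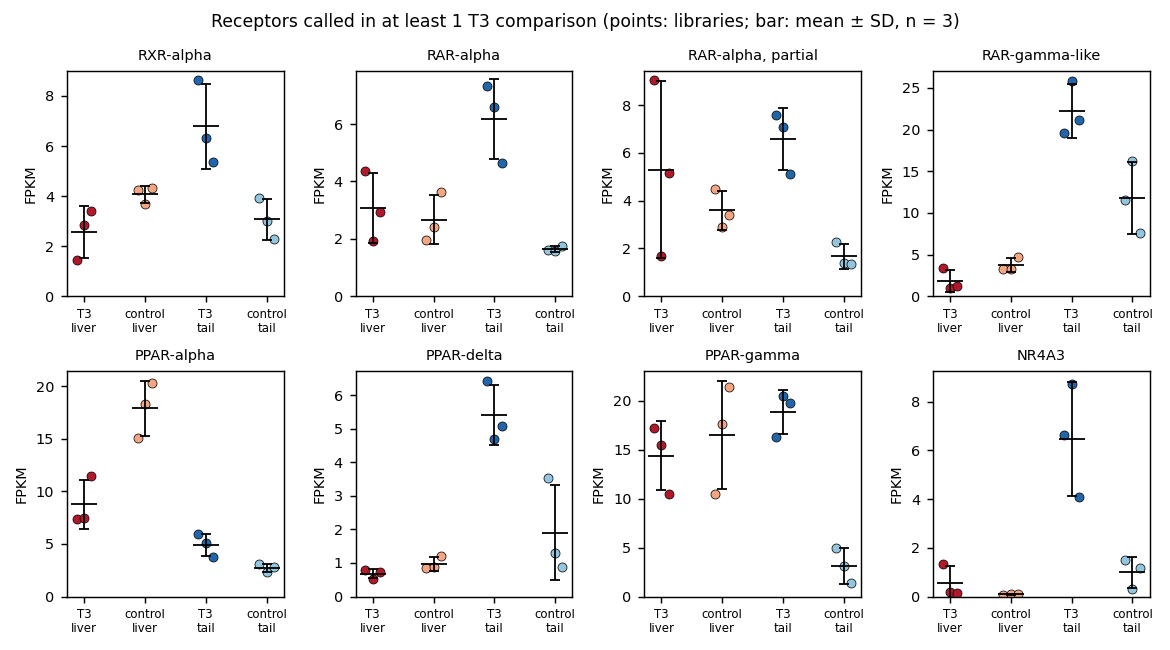
FPKM of 8 receptors in each library, with the mean and SD of the 3 libraries of a group as bars, and the groups T3 liver, control liver, T3 tail and control tail from left to right. T3 tails lie above control tails in every panel drawn, PPAR-gamma by the most (18.9 ± 2.26 against 3.16 ± 1.83 FPKM), and PPAR-alpha lies lower in T3 livers than in control livers. NR1D1, called lower with T3 in liver, and NR1D2, called lower with T3 in tail, are not drawn here.

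The other lipid, bile acid and vitamin receptors were not called for T3 in any tissue where they were tested. The bile acid receptor and both NR1H5 unigenes were too low in tail for a test. The bile acid receptor (FXR), which holds bile acid synthesis in check in mammals, had 27.4, 25.54 and 24.77 FPKM in T3 livers, against 16, 13.89 and 20.25 FPKM in control livers. The T3 livers were all higher, and the log2 fold change of 0.62 ± 0.21 missed the threshold as deposited (adjusted p = 0.0919) but passed under median-ratio scaling (0.93, adjusted p = 0.0325) and quantile normalization (0.84, adjusted p = 0.036). Without control livers 1 and 2 it was 0.34 (adjusted p = 0.73). NR1H5, a relative of FXR that binds lanosterol in mice, was matched by 2 unigenes at 0 to 3.29 FPKM in T3 livers and 1.48 to 4.63 FPKM in control livers, neither called (adjusted p = 0.274 and 0.158). NR1H2, the oxysterol receptor LXR-beta, had 7.3, 7.02 and 8.3 FPKM in T3 livers, against 11.95, 11.14 and 13.7 FPKM in control livers. Although the livers did not overlap, its log2 fold change was -0.63 ± 0.20 with an adjusted p of 0.0779. The vitamin D3 receptor had 2.92 ± 0.918 FPKM in T3 livers and 4.52 ± 0.0917 FPKM in control livers (SD, n = 3 each), with an adjusted p of 0.206, and 0.879 in tail.

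HNF4 receptors hold the hepatocyte programme and bind DNA as homodimers without a known hormone. The unigene annotated only as HNF4 had 27.85, 14.26 and 21.22 FPKM in T3 livers, against 7.17, 10.02 and 12.77 FPKM in control livers. The T3 livers were all higher. The log2 fold change was 0.99 ± 0.31 with an adjusted p of 0.0742 as deposited, 0.0308 under median-ratio scaling and 0.0353 under quantile normalization, and it was 0.64 without control livers 1 and 2 (adjusted p = 0.61). HNF4-beta-like, from the same assembly component, had 10.67, 12.8 and 15.46 FPKM in T3 livers, against 6.79, 10.4 and 8.71 FPKM in control livers (0.54 ± 0.24, adjusted p = 0.18). HNF4-gamma pointed down, with 2.68, 7.37 and 5.46 FPKM in T3 livers, against 9.66, 10.3 and 9.42 FPKM in control livers, and was not called either (-0.89 ± 0.32, adjusted p = 0.109). HNF4-alpha had 0.82 to 2.62 FPKM in T3 livers and 0.2 to 1.86 FPKM in control livers (adjusted p = 0.378). The 4 unigenes together had 40.9 ± 3.35 FPKM in T3 livers and 29.3 ± 4.74 FPKM in control livers (SD, n = 3 each).

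Steroid receptors showed no T3 call where they were tested, and the glucocorticoid receptor, at 0.84 to 1.2 FPKM in livers, was not tested there. The glucocorticoid receptor, which binds the corticosteroids that act with thyroid hormone at metamorphosis, had 4.53, 4.17 and 2.74 FPKM in T3 tails, against 4.02, 3 and 3.13 FPKM in control tails, and the groups overlapped (log2 fold change 0.12 ± 0.26, adjusted p = 0.756). The mineralocorticoid receptor, which binds aldosterone and corticosteroids, overlapped between T3 and control in liver (adjusted p = 0.494) and in tail (adjusted p = 0.895). The androgen receptor had 1.39, 1.33 and 0.92 FPKM in T3 livers, against 0.22, 0.73 and 0.32 FPKM in control livers. These livers did not overlap, but too few of them reached 1 FPKM for a test, and in tail the adjusted p was 0.813.

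Among the receptors that act on the clock, NR1D1 and NR1D2 (REV-ERB-alpha and REV-ERB-beta) repress transcription when heme is bound. NR1D1 had 4.34, 2.88 and 3.83 FPKM in T3 livers, against 8.18, 7.44 and 10.87 FPKM in control livers. The groups lay apart, and it fell by 1.07 ± 0.24 on the log2 scale (adjusted p = 0.0311), a call that was lost under median-ratio scaling (adjusted p = 0.0677) and quantile normalization (adjusted p = 0.0598) and without control liver 1, 2 or 3 or T3 liver 2 or 3 (adjusted p up to 0.119). In tail its log2 fold change was -0.62 ± 0.29 (adjusted p = 0.139), past the threshold under median-ratio scaling (adjusted p = 0.0246) and quantile normalization (adjusted p = 0.0201). NR1D2 had 2.92, 3.18 and 2.28 FPKM in T3 tails, against 8.07, 5.48 and 4.24 FPKM in control tails. It fell by 0.84 ± 0.28 on the log2 scale (adjusted p = 0.0468), and lost the call at equal library sums (adjusted p = 0.128) and when any library but control tail 3 was left out (adjusted p up to 0.144). In liver NR1D2 was not called (adjusted p = 0.452). ROR-alpha, an activator at the same DNA sites, had 0.37 to 1.39 FPKM in T3 tails and 0.74 to 1.3 FPKM in control tails (adjusted p = 0.999).

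NR4A receptors are immediate early genes that act without a classical ligand. NR4A3 had 6.64, 8.73 and 4.07 FPKM in T3 tails, against 1.52, 0.29 and 1.18 FPKM in control tails. All T3 tails were higher, and the log2 fold change was 1.91 ± 0.34 (adjusted p = 0.00269), a call that held under every alternative in which it could be fitted. In liver NR4A3 had 1.35, 0.19 and 0.14 FPKM with T3, against 0.05, 0.09 and 0.12 FPKM in controls. The livers did not overlap, but NR4A3 was too low for a test there. NR4A1 spread widely, with 19.08, 40.45 and 5.81 FPKM in T3 tails, against 5.45, 3.74 and 23.09 FPKM in control tails, and was not called (0.98 ± 0.68, adjusted p = 0.308). The COUP-type orphan receptors NR2F1-A, NR2F5-like and NR2F6, which repress by competing for shared DNA sites, were not called for T3 in any tissue where they were tested (adjusted p between 0.196 and 0.841).

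The corepressor NCOR1 carries histone deacetylase 3 to receptors without ligand. NCOR1 had 16.67, 15.83 and 15.45 FPKM in T3 tails, against 6.52, 4.71 and 4.66 FPKM in control tails. The spread within each group was small beside the distance between them (log2 fold change 1.44 ± 0.24, adjusted p = 0.00213). A second NCOR1 unigene, annotated as a predicted isoform and possibly another piece of the same gene, had 17.98, 18.09 and 16.71 FPKM in T3 tails, against 6.43, 5.84 and 5.19 FPKM in control tails (1.45 ± 0.23, adjusted p = 0.00165). Both tail calls held under every alternative. Neither was called in liver, where the log2 fold changes were 0.00 ± 0.25 and -0.34 ± 0.22.

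NRIP1, LCOR-like and NRIP2 were not called for T3. NRIP1 (RIP140), a corepressor of fat and metabolic genes, had 12.04, 5.28 and 2.85 FPKM in T3 tails, against 3.87, 2.14 and 1.45 FPKM in control tails. The groups overlapped, and the adjusted p was 0.101. LCOR-like, a ligand-dependent corepressor, and NRIP2 had adjusted p-values of 0.286 and 0.172 in tail, and NRIP2 passed the level filter in tail through the control group alone.

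The p160 coactivators NCOA1 to NCOA3 bind receptors with ligand and bring in histone acetyltransferases. NCOA3 had 3.74, 3.98 and 3.03 FPKM in T3 tails, against 1.55, 1.89 and 1.7 FPKM in control tails. The tails did not overlap, and the log2 fold change was 0.75 ± 0.24 (adjusted p = 0.0413), a call lost under median-ratio scaling (adjusted p = 0.116) and quantile normalization (adjusted p = 0.132) and when any 1 of the 6 tail libraries was left out (adjusted p up to 0.148). A second NCOA3 unigene of the same component had 2.79 ± 0.741 FPKM in T3 tails and 2.18 ± 0.583 FPKM in control tails (adjusted p = 0.518). NCOA1 and NCOA2 were not called in tail (adjusted p = 0.646 and 0.265), and NCOA1 had 1.17, 1.94 and 2.51 FPKM in T3 livers, against 3.51, 4.57 and 3.42 FPKM in control livers (-0.77 ± 0.26, adjusted p = 0.0938). Together the 4 p160 unigenes had 16.57, 14.06 and 10.37 FPKM in T3 tails, against 11.8, 10.04 and 8.29 FPKM in control tails, and these sums overlapped.

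Among the other coactivators, PNRC2, which links receptors and messenger RNA decapping in human cells, had 55.97, 49.28 and 22.56 FPKM in T3 tails, against 20.67, 16.05 and 9.66 FPKM in control tails. T3 tail 3 lay close to control tail 1, and the log2 fold change was 1.37 ± 0.38 (adjusted p = 0.0239), lost without control tail 3 or T3 tail 1 or 2 (adjusted p up to 0.0987). NCOA5, the coactivator with the highest mean over the 12 libraries, had 39.65, 71.5 and 62.68 FPKM in T3 tails, against 49.28, 30.1 and 21.72 FPKM in control tails, and was not called (0.80 ± 0.34, adjusted p = 0.105). PGC-1-alpha and PGC-1-beta, which raise mitochondrial genes with the PPARs, were not called. PGC-1-beta had 7.03, 10.18 and 4.98 FPKM in T3 livers, against 4.84, 3.92 and 2.9 FPKM in control livers, and 3.89, 6.01 and 3.1 FPKM in T3 tails, against 2.64, 2.57 and 1.42 FPKM in control tails. Every T3 library was above its controls in both tissues, with adjusted p-values of 0.136 and 0.0945. PRC, NCOA6 and PNRC1 had adjusted p-values from 0.214 to 0.901 where tested. Of the 2 other interacting proteins, LRIF1-like missed the threshold in tail (0.75 ± 0.25, adjusted p = 0.0501) and NR2C2AP had an adjusted p of 0.446.

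**Figure D4:**
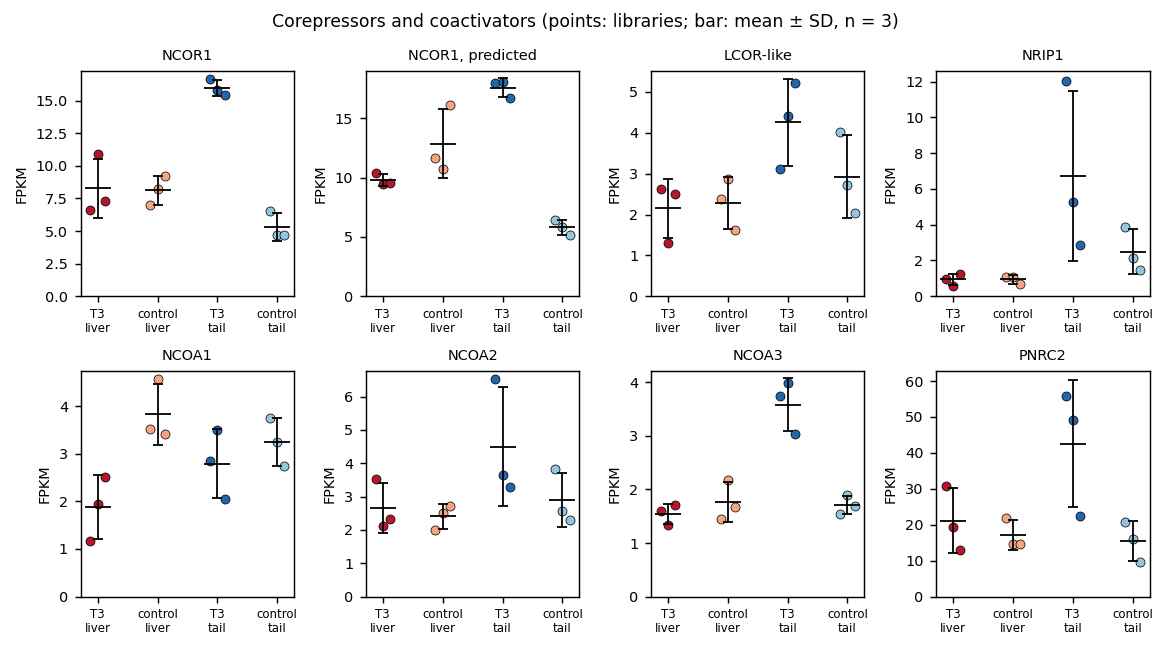
FPKM of 4 corepressors (top) and 4 coactivators (bottom) in each library, with the mean and SD of each group of 3 as bars, and T3 left of control in each tissue. T3 tails lie above control tails without overlap for NCOR1, its second unigene, NCOA3 and PNRC2, and T3 and control tails overlap for the other 4.

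The 9 members matched by wording held 5 T3 calls. In liver 2 of 8 tested (25%) rose and none fell, beside 3.83% and 8.67% of all tested unigenes. In tail 2 of 8 tested (25%) rose and 1 (12.5%) fell, beside 19.2% and 6.23% of all tested unigenes. NRBP2, a pseudokinase named for receptor binding, had 13.07, 7.1 and 8.3 FPKM in T3 livers, against 3.07, 3.69 and 3.77 FPKM in control livers (log2 fold change 1.18 ± 0.26, adjusted p = 0.0301), and 5.62, 6.62 and 5.53 FPKM in T3 tails, against 1.46, 1.19 and 0.99 FPKM in control tails (1.65 ± 0.24, adjusted p = 0.000943). Neither tissue overlapped. The liver call was lost without control liver 1, 2 or 3 or T3 liver 1 or 3 (adjusted p up to 0.103), and the tail call held throughout.

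NCOA4, the receptor that delivers ferritin to autophagosomes, was the most abundant member in every library. It had 447.25, 452.48 and 370.28 FPKM in T3 livers, against 202.28, 275.76 and 282.01 FPKM in control livers. The groups lay apart (log2 fold change 0.75 ± 0.19, adjusted p = 0.0456), and the call ended when any 1 of the 6 liver libraries was left out (adjusted p up to 0.138). NRBF2, a subunit of the autophagy lipid kinase complex, had 8.19, 9.56 and 9.31 FPKM in T3 tails, against 5.56, 4.29 and 3.26 FPKM in control tails (0.92 ± 0.26, adjusted p = 0.0246), and lost the call when any library but control tail 1 was left out (adjusted p up to 0.0989).

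A chemerin-like unigene (retinoic acid receptor responder 2-like, a secreted attractant of leukocytes in mammals) fell in tail. It had 15.72, 12.65 and 15.86 FPKM in T3 tails, against 49.45, 66.06 and 39.55 FPKM in control tails. The log2 fold change was -1.72 ± 0.26 (adjusted p = 0.00129), and it held under every alternative. A second chemerin-like unigene did not follow it, with 86.1 ± 8.37 FPKM in T3 tails and 88.2 ± 7.88 FPKM in control tails (SD, n = 3 each, adjusted p = 0.921). NRBP1 and GPBAR1 were not called in either tissue.

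Several marker lists moved with T3 beside these members. Epidermis markers (13 of 22 unigenes at 1 FPKM or more) took 0.269% to 0.45% of the FPKM of T3 tails and 0.0871% to 0.112% of control tails, without overlap. Skeletal muscle markers (26 of 38) took 2.11% to 3.15% of T3 tails and 2.83% to 5.88% of control tails. Erythrocyte markers (11 of 11) took 0.366% to 0.605% of T3 tails and 0.111% to 0.367% of control tails, while leukocyte and macrophage markers (10 of 12) took 0.0197% to 0.0288% of T3 tails and 0.0104% to 0.0328% of control tails. In liver, hepatocyte markers (19 of 22) took 4.17% to 5.91% of T3 livers and 2.91% to 4.14% of control livers, leukocyte and macrophage markers 0.00532% to 0.0166% of T3 livers and 0.0295% to 0.0359% of control livers, and skeletal muscle markers 0.0117% to 0.0133% of T3 livers and 0.0165% to 0.021% of control livers, each without overlap. Erythrocyte markers took 0.393% to 0.639% of T3 livers and 0.54% to 1.12% of control livers. The part of these lists in the liver and tail results was not tested.

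The T3 effect of liver was then set against that of tail in a single model. Of the 56 members, 1 (1.79%) had a more positive effect in liver and 11 (19.6%) a more negative one, beside 3.72% and 15.3% of all 23101 unigenes tested, and the median differences were -0.59 and -0.49. The members' shares are thus close to those of all unigenes. PPAR-gamma differed most, by -2.51 ± 0.49 on the log2 scale (liver minus tail, adjusted p = 0.00462), followed by the predicted NCOR1 (-1.79 ± 0.28, adjusted p = 0.00123), RAR-gamma-like (-1.72 ± 0.46, adjusted p = 0.0224), PPAR-alpha (-1.61 ± 0.33, adjusted p = 0.00644) and RXR-alpha (-1.48 ± 0.38, adjusted p = 0.0185). The chemerin-like unigene was the 1 positive difference (1.65 ± 0.31, adjusted p = 0.00421). With at most 0.2 FPKM in any liver it could not fall there, so that this difference restates its fall in tail (-1.72). The receptors PPAR-delta, NR4A3, RAR-alpha and NR1H2 and the cofactors NCOR1 and NCOA3 make up the other calls, between -0.87 and -1.47. NR4A3 lay near 0 FPKM in most livers, where a change is understated on this scale. Its difference lost the call with 0.1 in place of 1 added to FPKM.

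These differences depend on how libraries are scaled. Under median-ratio scaling 4 members were more positive in liver and 2 more negative, and under quantile normalization 2 and 2, with 3 of the 12 calls shared in each case. Those 3 were PPAR-gamma (-1.76 and -1.90), the predicted NCOR1 (-1.03 and -1.15) and the chemerin-like unigene (2.07 and 2.11). The last of them lay near the floor in every liver. Over all unigenes the share of positive differences among calls was 19.6% as deposited, 59.5% under median-ratio scaling and 48.2% under quantile normalization. Leaving out control livers 1 and 2 kept 3 of the 12 calls, PPAR-gamma (-2.92), the predicted NCOR1 (-2.12) and PPAR-alpha (-1.80).

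Control liver was set against control tail to give the level of each member by organ without T3. Of 51 members tested, 16 (31.4%) were higher in control liver and 10 (19.6%) lower, beside 25.3% and 21.8% of all 19642 unigenes tested. For 9 of the 51, only 1 of the 2 tissues reached the level filter, so that they had to differ, and all 9 were called. They were the 3 tested HNF4 unigenes, both NR1H5 unigenes, NR2F1-A, the androgen receptor and 2 chemerin unigenes.

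The bile acid receptor had 16, 13.89 and 20.25 FPKM in control livers, against 1.19, 0.1 and 0.16 FPKM in control tails (log2 difference 3.64 ± 0.32, adjusted p = 1.68e-05). HNF4, HNF4-beta-like and HNF4-gamma were higher by 3.26 ± 0.26, 3.23 ± 0.23 and 3.09 ± 0.24, and in no tail library, with or without T3, did any HNF4 unigene pass 0.62 FPKM. Both NR1H5 unigenes were listed at 0 in all 3 control tails, against 1.48 to 4.63 FPKM in control livers. The bile acid receptor, the HNF4 unigenes and both NR1H5 unigenes stayed near 0 in T3 tails as well. Other receptors of lipids and vitamins did not share this pattern. NR1H2 had 13.5 ± 3.00 FPKM in control tails and 18.3 ± 2.33 FPKM in T3 tails (SD, n = 3 each). It was not called between control liver and control tail (-0.11 ± 0.25, adjusted p = 0.731), nor was the vitamin D3 receptor (0.22 ± 0.30, adjusted p = 0.575).

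PPAR-alpha was higher in control liver, with 15.12, 18.29 and 20.33 FPKM, against 3.11, 2.33 and 2.8 FPKM in control tails (2.33 ± 0.23, adjusted p = 4.38e-05). PPAR-gamma was also higher, with 10.52, 17.64 and 21.39 FPKM in control livers, against 4.99, 3.14 and 1.34 FPKM in control tails (2.12 ± 0.39, adjusted p = 0.00175), and lost the call without control livers 1 and 2 (adjusted p = 0.0749). T3 tails, at 16.29 to 20.5 FPKM, lay within the range of the control livers. NCOA7, an oxidation resistance protein, and GPBAR1 were higher in control liver by 2.01 ± 0.26 and 1.48 ± 0.27, and GPBAR1 lost the call without control livers 1 and 2 (adjusted p = 0.106).

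Among the members lower in control liver, RAR-gamma-like had 3.22, 3.29 and 4.69 FPKM in control livers, against 11.54, 16.18 and 7.62 FPKM in control tails (-1.39 ± 0.30, adjusted p = 0.00445), and the others included the glucocorticoid receptor (-1.11 ± 0.22, adjusted p = 0.00266), NR1D2 (-1.06 ± 0.26, adjusted p = 0.00908) and NR4A1 (-2.11 ± 0.58, adjusted p = 0.0149). The largest difference was the chemerin-like unigene, at 0, 0.06 and 0.2 FPKM in control livers, against 49.45, 66.06 and 39.55 FPKM in control tails. Without control livers 1 and 2, 10 of the 26 calls remained. Of these, 7 were among the 9 members that had to differ, and the other 3 were PPAR-alpha, the bile acid receptor and NCOA7. RAR-gamma-like (adjusted p = 0.222), the glucocorticoid receptor (adjusted p = 0.0948), NR1D2 (adjusted p = 0.181) and NR4A1 (adjusted p = 0.199) lost the call.

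**Figure D5:**
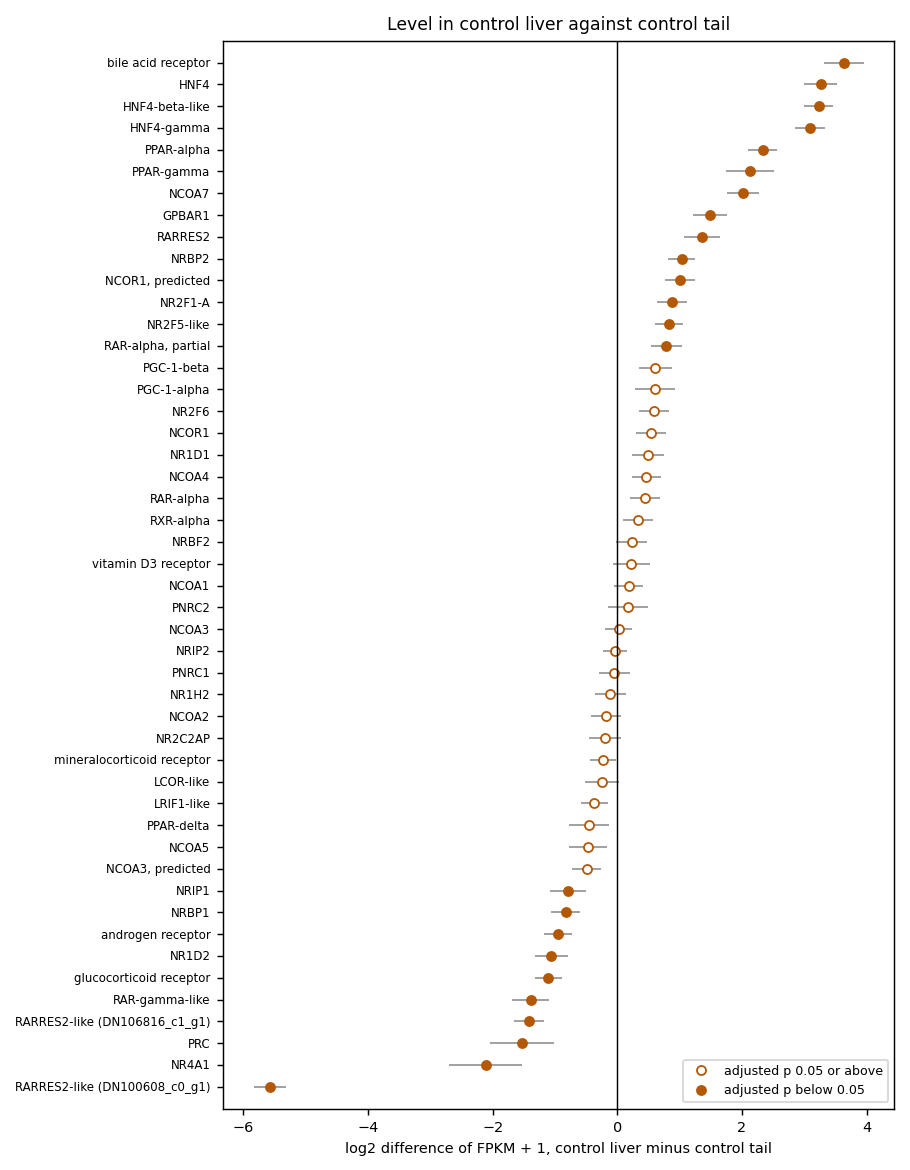
Log2 difference of FPKM + 1 between control liver and control tail, with its standard error, for the tested members drawn, ordered by size. Filled points are called at an adjusted p below 0.05. The bile acid receptor (3.64) and HNF4 (3.26) stand at the liver end and the chemerin-like unigene (-5.57) at the tail end. The 2 NR1H5 unigenes, listed at 0 in control tails, are not drawn.

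Genes that work with these receptors were counted from lists written by annotation wording. Thyroid hormone receptor beta, the receptor that T3 induces through its own gene in Xenopus, is worded outside the members. It had 4.46 ± 1.71 FPKM in T3 livers and was listed at 0 in all control livers, and it had 10.5 ± 1.4 FPKM in T3 tails and 0.567 ± 0.362 FPKM in control tails (SD, n = 3 each, log2 fold change 2.90, adjusted p = 4.54e-05). Of the nuclear receptors worded outside the members, it was the only one called of 2 tested in liver, and of 4 tested in tail 2 rose, both annotated as this receptor. All 3 of these calls passed the level filter through the T3 libraries alone, so that they had to come out higher. In the list of thyroid hormone handling and response, 3 of 9 tested unigenes rose and 3 fell in liver, and 7 of 8 rose and 1 fell in tail. Among the rises, a thyroid hormone induced bZip protein (3.82 in liver, 5.18 in tail) passed the level filter through T3 libraries alone in each tissue. The type II and type III deiodinases (2.98 and 2.08) did so in tail. All these rises had to come out higher. KLF9, a direct T3 target in Xenopus, was matched by 2 unigenes that rose in both tissues (3.20 and 2.99 in liver, 1.95 and 2.12 in tail), and transthyretin, a plasma carrier of thyroid hormone, fell in liver by 2.05 on the log2 scale. Monocarboxylate transporter 10 rose in tail by 2.09.

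Of the other coregulators, 1 of 31 fell in liver and 6 of 32 rose and 1 fell in tail. The faller in liver was a p300-like histone acetyltransferase, with 5.84 ± 2.4 FPKM in T3 livers and 34.6 ± 5.1 FPKM in control livers (SD, n = 3 each, adjusted p = 0.00373), and the risers in tail included mediator subunits 4 (1.02), 13 (0.77) and 18 (0.88). In the retinoid handling list, 3 of 19 rose and 3 fell in liver and 3 of 13 rose in tail. The 3 in tail were CRABP2, which hands retinoic acid to its receptors (32.7 ± 0.752 FPKM in T3 tails and 6.53 ± 0.509 FPKM in control tails, SD, n = 3 each), RDH10, which makes retinal (1.06), and CYP26B1, which clears retinoic acid (1.38). The 3 that rose in liver were all plasma retinol-binding protein unigenes (0.89, 0.94 and 2.16). The last of them passed the level filter through T3 livers alone and had to come out higher. The 3 that fell in liver were 2 retinol dehydrogenase 7 unigenes (-2.24 and -4.02) and a lecithin retinol acyltransferase-like unigene (-1.58).

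In the list of textbook PPAR targets, 1 of 4 fell in liver and 4 of 6 rose and 1 fell in tail. Liver fatty acid-binding protein had 17.1 ± 9.57 FPKM in T3 livers and 630 ± 203 FPKM in control livers (SD, n = 3 each, adjusted p = 0.000909), while in tail the adipocyte fatty acid-binding protein (2.45) and ANGPTL4 (1.55) rose. A unigene like the liver isoform of carnitine O-palmitoyltransferase 1 rose in tail as well (1.09). An adipocyte-like fatty acid-binding protein unigene also rose in tail (3.98), and a liver fatty acid-binding protein unigene fell there (-2.97). They passed the level filter through T3 tails alone and control tails alone, so that both had to differ. Of the textbook FXR, LXR and VDR targets, 1 of 11 rose and 2 fell in liver and 3 of 6 rose and 1 fell in tail. Those in liver were the vitamin D 24-hydroxylase, which rose by 1.93, a bile salt export pump-like unigene, which fell by 3.70, and a cholesterol 7-alpha-monooxygenase-like unigene, which fell by 2.35 on the log2 scale. The last of these passed the level filter through control livers alone and had to come out lower. A more abundant unigene of the same annotation had 17.1 ± 20.1 FPKM in T3 livers and 104 ± 81.9 FPKM in control livers (SD, n = 3 each), and was not called for T3. ABCA1, a cholesterol exporter, rose by 2.03 in tail, while sterol regulatory element-binding protein 1 fell there by 0.87. A second ABCA1 unigene (2.27) and the vitamin D 1-alpha hydroxylase (1.36) also rose in tail. Both passed the level filter through T3 tails alone and had to come out higher. Among corticosteroid handling and response genes, 2 of 10 rose and 2 fell in liver and 4 of 13 rose and 3 fell in tail. SGK1, a kinase that corticosteroids induce, rose by 2.34 in liver and by 2.83 in tail, and a second SGK1 unigene rose by 2.26 and 3.04. The first varied widely in T3 livers, at 85.4 ± 65.5 FPKM, against 13.2 ± 1.25 FPKM in control livers (SD, n = 3 each). The 2 that fell in liver (-0.81 and -0.69) and 2 of those that fell in tail (-2.69 and -2.77) are HSP90 chaperones, which hold many client proteins besides steroid receptors. Of 2 called unigenes annotated as prostaglandin E synthase 3, 1 rose in tail (0.97) and 1 fell (-1.66). None of the 3 tested hepatocyte transcription factors outside the members was called for T3 in liver. Of the list calls, 4 of 22 in liver and 10 of 36 in tail passed the level filter through 1 group only and had to differ. Without control livers 1 and 2, an alternative added after seeing the data, 4 of the 22 liver calls remained, and all 22 kept their sign. The 4 were liver fatty acid-binding protein (-5.33, adjusted p = 0.0384), the bile salt export pump-like unigene (-3.41, adjusted p = 0.0391), the vitamin D 24-hydroxylase (2.84, adjusted p = 0.0371) and a retinol dehydrogenase 7 (-4.64, adjusted p = 0.0137). The p300-like unigene (adjusted p = 0.118), transthyretin (adjusted p = 0.171), SGK1 (adjusted p = 0.252), the cholesterol 7-alpha-monooxygenase-like unigene (adjusted p = 0.171), both KLF9 unigenes (adjusted p = 0.06 and 0.0555) and thyroid hormone receptor beta (adjusted p = 0.122) lost the call there. Each list is described by its counts alone, beside the background shares of its tissue given above.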

How the data were processed

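Per the labels and the study's methods, liver and tail RNA was sequenced and assembled with Trinity, and the authors annotated the unigenes from a protein database and quantified them as FPKM, deposited with 2 decimals. FPKM hold no read depth, so no counting interval is given. Neither a reference genome nor columns outside the 12 libraries were used.

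For each comparison but the difference of T3 effects, unigenes reaching 1 FPKM in 3 or more of its libraries were tested. The fits were limma (version 3.58.1, R 4.3.3) on log2(FPKM + 1), with a variance prior that followed mean level. Fold changes of low unigenes are understated on this scale. The difference of T3 effects came from 1 model of all 4 groups. It took the unigenes tested for T3 in liver or in tail. P-values were adjusted by Benjamini-Hochberg over all tested unigenes, and calls are at an adjusted p below 0.05. Groups follow the sample titles. Every receptor tested is named, with 1 unigene for each description. Cofactors are named if called in both tissues, among the 6 largest in a direction or among the 3 most abundant, and list genes if called and among the 3 most abundant. Others were named after their values were seen. 1 member is counted but not reported here. The members, lists and tests were chosen with earlier results of these data known, and list patterns were later corrected from annotation wording. Alternatives changed the pseudocount, filter, scaling, variance trend and libraries. The functions were tested on simulated data.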

Additional observations from a re-analysis of the deposited data

Results flagged for a closer look

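The T3 effect differed between liver and tail for 12 members by the test of the difference itself (limma, liver minus tail on the log2 scale). It was more positive in liver for 1.79% of members and more negative for 19.6%, beside 3.72% and 15.3% of all 23101 unigenes tested. The differences were -2.51 for PPAR-gamma, -1.79 for the predicted NCOR1, -1.72 for RAR-gamma-like, -1.61 for PPAR-alpha, -1.48 for RXR-alpha, -1.47 for PPAR-delta, -1.47 for NR4A3, -1.44 for NCOR1, -1.29 for RAR-alpha, -1.06 for NR1H2, -0.87 for NCOA3 and 1.65 for a chemerin-like unigene (RARRES2-like). PPAR-gamma and the predicted NCOR1 kept the call under all alternatives tried, and the adjusted p-values of NCOA3 (0.0494) and NR4A3 (0.0497) lay at the threshold. Of the 12 calls, 3 were kept under median-ratio scaling and 3 under quantile normalization. NR4A3, NCOA3 and the chemerin-like unigene lost the call with 0.1 in place of 1 added to FPKM. NR4A3, PPAR-delta and the chemerin-like unigene were too low in liver to be tested there alone. Without control livers 1 and 2, which stand apart by exocrine pancreas markers, PPAR-gamma, the predicted NCOR1 and PPAR-alpha kept the call. Groups of 3 libraries were not tested for single outlying values.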

How the results depend on the processing

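Over the alternatives no named member changed its direction past the threshold, and of single-member values 3190 kept their side of it, 218 lost the call and 46 gained it. In liver, where 5 members were called, the count was 0 without a filter, 3 at equal library sums, 2 with a replicate block, 0 without control livers 1 and 2, and 0 to 4 with 1 library left out (0 without any 1 control liver, 2 without T3 liver 1 or 2). Where limma called 0, members with an unadjusted p below 0.05 numbered 15 without a filter and 9 without each 1 control liver. The share of all unigenes below that unadjusted threshold was not taken, so these counts are not a result about the members. Over all unigenes, the liver fit gave 322 rises and 382 falls without control liver 3, against 725 and 1640 with all libraries. In tail, with 16, the count was 9 without a filter, and 9 to 15 with 1 library left out (10 without control tail 3, 9 without T3 tail 1 or 2). At equal library sums 18 members rose and 1 fell in tail, with PPAR-alpha, GPBAR1, LRIF1-like and NCOA5 among the rises. For the difference between tissues, with 12, it was 7 without a filter, 6 under median-ratio scaling, 4 under quantile normalization, 3 without control livers 1 and 2, and 6 to 15 with 1 library left out (6 without control liver 3, 7 without control tail 2, control tail 3 or T3 tail 2). For control liver against control tail, with 26, it was 11 among members at 1 FPKM in every library, 10 without control livers 1 and 2, and 21 to 27 with 1 library left out. The replicate block gave 16, 12 and 26 calls in the other comparisons. With it NRIP1 was called in tail (adjusted p = 0.0196) and NCOA3 was not (adjusted p = 0.0571), and in liver NRBP2 (adjusted p = 0.0515) and NCOA4 (adjusted p = 0.0654) were not. Deviations of same-numbered libraries correlated at 0.0255 to 0.0501 between T3 and control tails and at 0.0667 to 0.209 between T3 and control livers. Between liver and tail they correlated at 0.0678 to 0.166 in controls and at -0.0729 to 0.166 with T3. The numbers were not taken to pair the samples, and whether a liver and a tail share an animal stays unknown. Leaving 1 library in an arm assumes that it varies like the other groups. Unknown read depth limits members near 1 FPKM.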
